A study of Mus musculus with 6 samples.

Results

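The beaded filament and the membrane skeleton of the lens fibre cell are described here through 7 genes: Bfsp1, Bfsp2, Vim, Tmod1, Sptbn1, Ank2 and Ezr. All probes annotated to these symbols were taken, with Spnb2 counted as the older symbol of Sptbn1. This gave 15 of the 25697 probes of an Illumina BeadChip, an array whose beads are coated with gene-specific oligonucleotide probes. Of the 15 probes, 7 belonged to Sptbn1, 3 to Ank2 and 1 to each of the other 5 genes. The rule goes by gene symbol and uses no measured value. A probe was tested if its detection p-value, its rank among negative control beads, was under 0.05 on at least 3 of the 6 arrays. By this rule 9 of the 15 probes were tested, and each of the 7 genes kept at least 1.

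Lens RNA came from 3 mice homozygous for the Fgf9 Y162C substitution, which replaces 1 amino acid in fibroblast growth factor 9, and from 3 wild-type mice. All 6 mice were C57BL/6J and 18 weeks old, and each array held RNA of 1 mouse. The labels give 2 females and 1 male among the homozygotes and 1 female and 2 males in the wild type. RNA was taken from whole lens, so fewer cells of a type and less RNA per cell cannot be told apart. The age means that any earlier change in the forming lens was not measured.

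Fibre cells make up most of the lens and carry a cytoskeleton found in hardly any other cell. Its beaded filaments are built from an unusual pair of intermediate filament proteins, filensin (Bfsp1) and phakinin (Bfsp2, also called CP49), and lie beside ordinary vimentin filaments. Beneath the fibre membrane, spectrin tetramers are joined by short actin filaments, whose slow-growing ends are capped by tropomodulin, and ankyrin ties this network to membrane proteins. Mice that lack phakinin or tropomodulin 1 are known to form lenses whose fibre cells lose their regular shape and packing with age.

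The arrays differed in overall brightness before any comparison was made. Mean deposited signal lay between 161.6 and 165.7 on the homozygous arrays and between 191 and 200.4 on the wild-type arrays. The homozygous arrays detected 7816 to 8396 probes above background and the wild-type arrays 8713 to 9671. Wild type replicate 2 lay far from the other 5 arrays along the main axis of variation (43.2% of the total variance), at 31.1 against -17 to 7.89. Wild type replicate 3 is labelled male, yet Xist was detected there by 2 probes and Y-linked Eif2s3y was not. Every member is therefore also given without these arrays where its direction turned. The single Fgf9 probe was detected on 0 of 6 arrays. The lens label was checked against fibre markers: 6 of the 7 on the array, Mip, Lim2 and crystallins among them, were detected in both genotypes, and Gja3 was not.

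The comparison asks whether lenses with the altered growth factor hold other amounts of these skeleton transcripts. Of the 7 genes, 0 differed between the genotypes by limma's test (adjusted p under 0.05), and 0 had an unadjusted p under 0.05. Across all 6430 tested genes 28 passed, which is 0.435%, and 9.14% had an unadjusted p under 0.05. The members' median log2 difference, homozygous minus wild type, was 0.17, and that of all tested genes was -7.27e-05. Of the 7 differences, 6 were above 0 and 1 was below it, against 3215 above 0 among all 6430 genes, a share that the common scaling of the arrays holds near even. The 6 became 4 with array weights and 0 with no normalization between arrays, where the median of all genes was itself -0.36. In 1 of 7 genes, Tmod1, the 3 homozygous values lay apart from the 3 wild-type values, while 15.1% of all tested genes showed such separation. The members' share of separated genes thus stood close to that of the array as a whole.

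**Figure D1:**
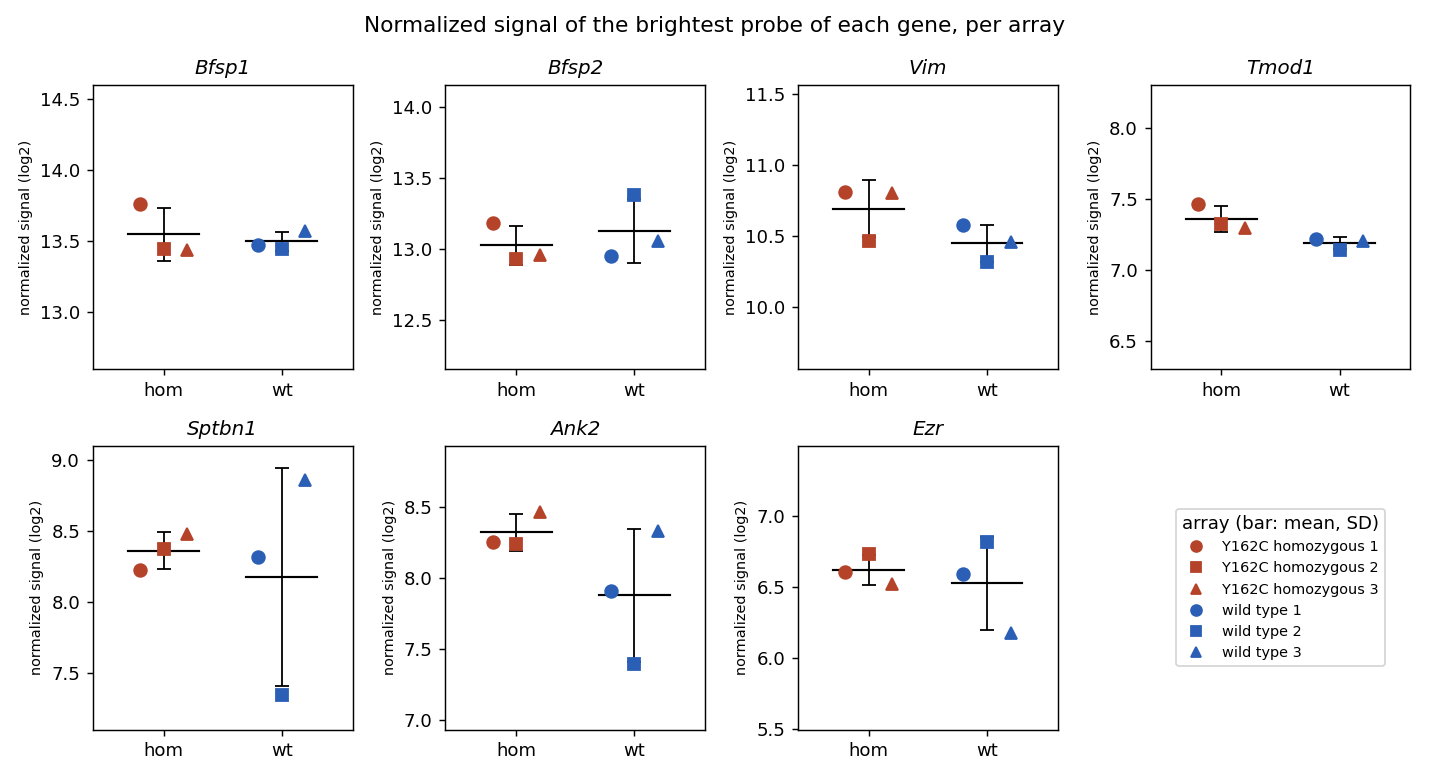
Normalized log2 signal of the brightest probe of each gene on each array, homozygous (hom, red) left of wild type (wt, blue), with the group mean and SD as bars; every panel spans 2 log2 units. Only Tmod1 shows groups that do not overlap, and the widest spread is that of Sptbn1 and Ank2 in the wild type.

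Bfsp1 encodes filensin, the larger beaded filament protein. Its normalized log2 signal was 13.76, 13.44 and 13.43 in the homozygotes, against 13.47, 13.44 and 13.57 in the wild type. The wild-type values fell inside the homozygous range, and the highest value of all belonged to homozygous replicate 1. Homozygous minus wild type gave a log2 difference of 0.050 (SE 0.10, n = 3 per group, limma adjusted p = 0.916). Its 95% interval ran from -0.18 to 0.28, so that a homozygous level between 0.885 and 1.21 times the wild-type level was compatible with these arrays. The sign rested on 1 array: without homozygous replicate 1 the difference was -0.059.

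Bfsp2 encodes phakinin, the partner with which filensin assembles. Its normalized log2 signal was 13.19, 12.93 and 12.96 in the homozygotes, against 12.95, 13.38 and 13.06 in the wild type. The groups overlapped, and wild type replicate 2 was the highest. The genotypes differed by -0.10 on the log2 scale (SE 0.12, n = 3 per group, limma adjusted p = 0.831), with a 95% interval from -0.37 to 0.16, or 0.776 to 1.12 times the wild-type level. Without wild type replicate 2 it was 0.033. For both genes of the pair the interval included 0.

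The deposited signals of the pair looked different before normalization. Bfsp1 gave 10786, 10075 and 10222 in the homozygotes and 13462, 12417 and 13361 in the wild type. Bfsp2 gave 7341, 6985 and 7228 in the homozygotes and 9412, 11683 and 9536 in the wild type. For both genes all 3 homozygous signals lay below all 3 wild-type signals, at 0.792 and 0.704 of the wild-type mean. The whole array moved the same way: the 100 brightest probes had a median ratio of 0.769, and all 8618 tested probes one of 0.864. Of the 7 genes, 4 (Bfsp1, Bfsp2, Vim and Tmod1) had every homozygous signal below every wild-type signal, as did 53.7% of all tested genes.

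**Figure D2:**
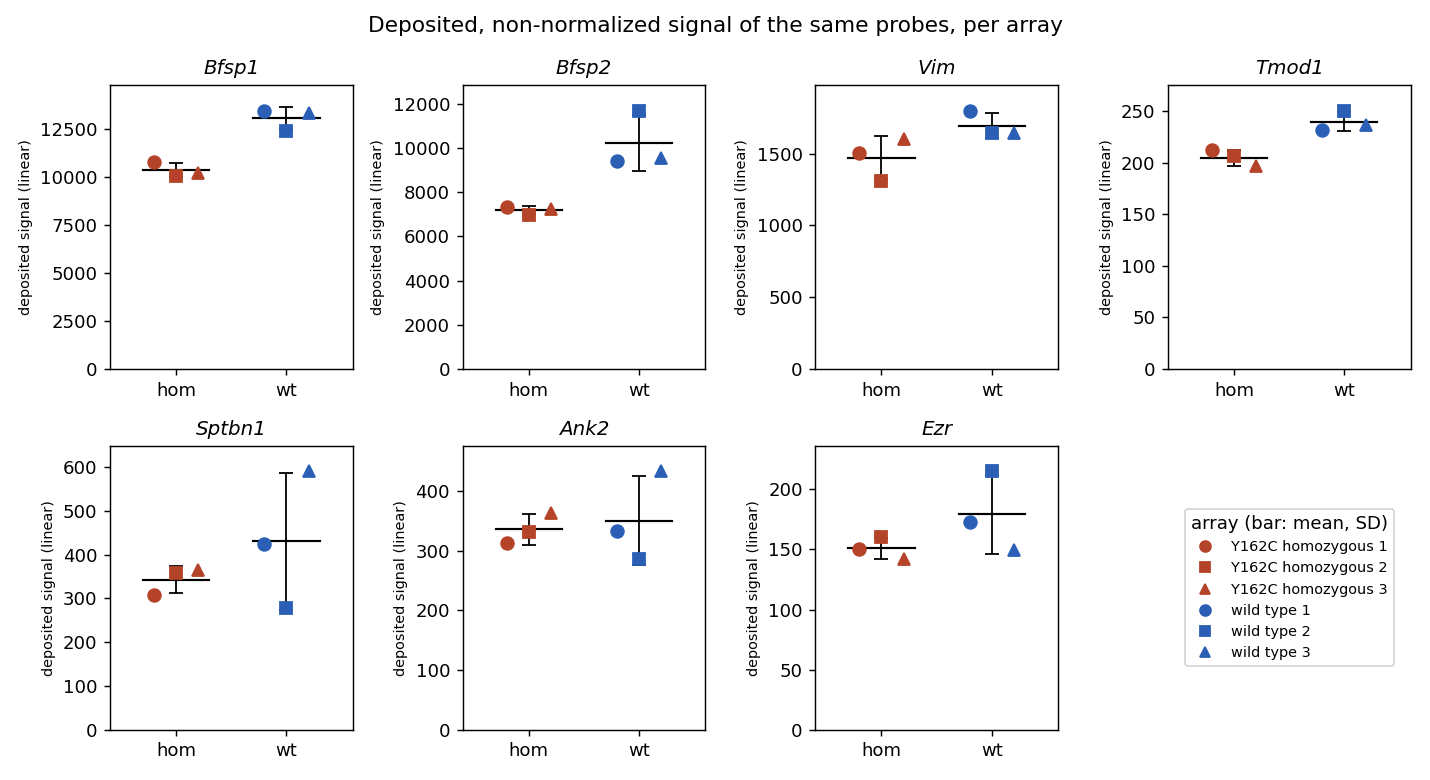
Deposited, non-normalized signal of the same probes on a linear axis from 0, homozygous (hom, red) left of wild type (wt, blue), with the group mean and SD as bars. Bfsp1, Bfsp2, Vim and Tmod1 are lower on all 3 homozygous arrays, a pattern shared by 53.7% of all tested genes.

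A setting with no normalization between arrays was added once the values had been seen. There the median log2 difference of all tested genes was -0.36, and 20.5% of genes passed the test. Bfsp1 then stood at -0.34 and Bfsp2 at -0.50, both passing (limma adjusted p = 0.0383 and 0.0211). Set against the median of all genes, Bfsp1 was thus near the array's own shift and Bfsp2 below it. The arrays cannot tell less RNA for most transcripts from less labelled material on the homozygous arrays. Quantile normalization takes each probe's rank on its array, and the rank of Bfsp1 was 25 to 36 in the homozygotes and 31 to 35 in the wild type. The rank of Bfsp2 was 42 to 55 in the homozygotes and 37 to 54 in the wild type. The authors' processed intensities, scaled by a method not stated, also overlapped between genotypes: Bfsp1 had 11607 to 13515 in the homozygotes against 10331 to 12763 in the wild type.

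Vim encodes vimentin, the intermediate filament protein of lens epithelium and young fibres. Its normalized log2 signal was 10.81, 10.46 and 10.80 in the homozygotes, against 10.58, 10.31 and 10.46 in the wild type. A pair of homozygous lenses lay above all wild-type lenses, and homozygous replicate 2 lay among them. Their log2 difference was 0.24 (SE 0.13, n = 3 per group, limma adjusted p = 0.611), with a 95% interval from -0.033 to 0.52, and it stayed between 0.17 and 0.35 in 16 other settings that kept a scaling between arrays. Vimentin is also made by glia, fibroblasts and endothelium. Of the 5 tested markers of inner retina and glia, 4 passed below 0, against 0.435% of all tested genes. All 5 were detected on 0 or 1 homozygous arrays and on 3 wild-type arrays, so they reached the test through the wild type. The mean log2 deviation of the list was -0.94 to -0.71 on the homozygous arrays and 0.46 to 1.27 on the wild-type arrays. Of this list Glul and Nefl were detected on 0 arrays. Endothelial and fibroblast markers, 3 of 7 tested and 0 passing, had deviations of -0.069 to 0.11 in the homozygotes and -0.19 to 0.22 in the wild type. The lens epithelium list had 3 of 5 markers tested, and 1 of them, the water channel Aqp1, passed with a log2 difference of 1.30 (limma adjusted p = 0.00343). The mean deviation of the list was 0.26 to 0.44 on the homozygous arrays and -0.47 to -0.072 on the wild-type arrays. This is the same side of 0 as Vim, and Pax6 of that list was detected on 0 arrays. The part of any of these lists in the Vim value was not tested.

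Tmod1 encodes tropomodulin 1, which caps the slow-growing ends of the short actin filaments in the spectrin network. Its normalized log2 signal was 7.47, 7.32 and 7.29 in the homozygotes, against 7.22, 7.14 and 7.20 in the wild type. Every homozygous value lay above every wild-type value. The difference of the means was 0.17 log2 units (SE 0.14, n = 3 per group, limma adjusted p = 0.74). Its 95% interval ran from -0.14 to 0.48. The wild-type SD of Tmod1, 0.042, was the smallest among the 7 genes. The deposited signal had the opposite order, with 211.7, 206.5 and 196.4 in the homozygotes and 232.1, 250.2 and 236.8 in the wild type. The direction for Tmod1 thus turned with normalization. With no normalization between arrays its log2 difference was -0.30, against a median of -0.36 for all genes.

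Sptbn1 encodes the beta-II spectrin chain, which pairs with alpha spectrin in the membrane network of many cells. Of its 7 probes, 4 are annotated to the transcript NM_175836 and 3 to NM_009260. The brightest, ILMN_1214394, had a normalized log2 signal of 8.23, 8.38 and 8.48 in the homozygotes, against 8.32, 7.34 and 8.86 in the wild type. The homozygous values lay inside the wild-type range, with an SD of 0.13 in the homozygotes against 0.77 in the wild type. The log2 difference was 0.19 (SE 0.29, n = 3 per group, limma adjusted p = 0.88). Without wild type replicate 2 it turned to -0.23, and without wild type replicate 3 it was 0.53.

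The second tested Sptbn1 probe, ILMN_2689307, sat at the detection limit. It passed detection on 1 homozygous array and on all 3 wild-type arrays, with deposited signals of 98.2, 84.5 and 91.3 in the homozygotes and 105.8, 108.7 and 104.9 in the wild type. Its log2 difference was -0.31 (SE 0.16, n = 3 per group, limma adjusted p = 0.611), on the other side of 0 from the bright probe, and its groups did not overlap. The remaining 5 Sptbn1 probes were not tested: 4 were detected on 0 arrays, and ILMN_2662396 only on wild type replicate 3. The wild-type arrays alone brought ILMN_2689307 into the test, so the filter favoured a value below 0. Nothing is read from its sign or its separation. Neither tested probe of Sptbn1 passed, and the bright one turned without wild type replicate 2, so no direction is given for the gene.

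**Figure D3:**
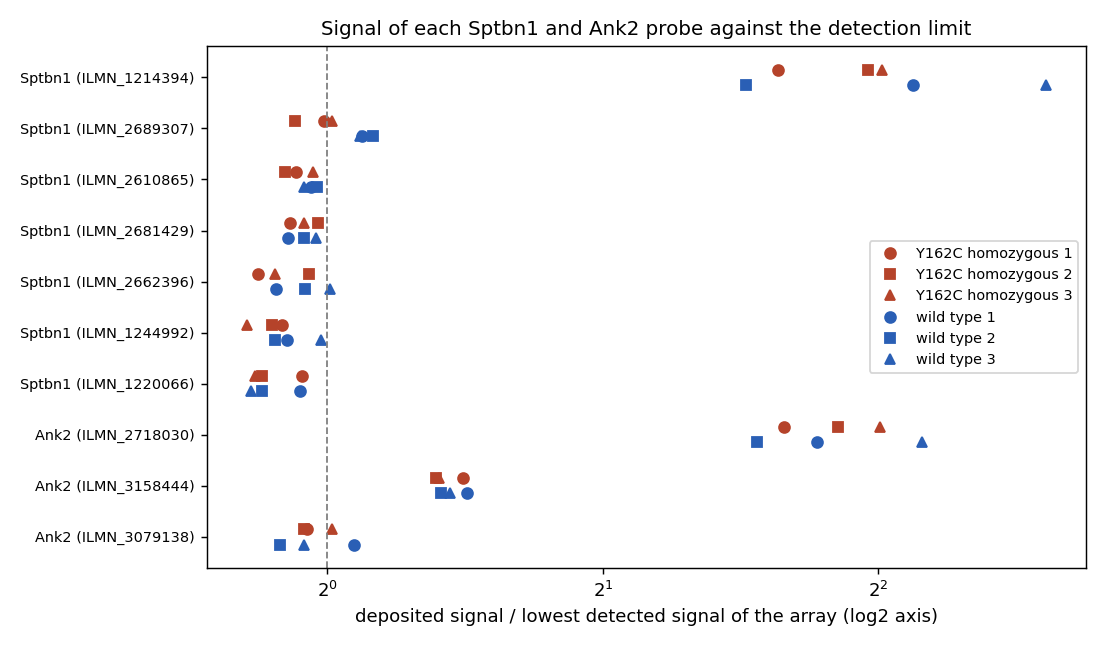
Deposited signal of each Sptbn1 and Ank2 probe divided by the lowest detected signal of its array (log2 axis; the dashed line is the detection limit), homozygous (red) above wild type (blue) in each row. Only 1 Sptbn1 probe and 2 Ank2 probes lie clear of the limit on all 6 arrays.

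Ank2 encodes ankyrin-B, the adaptor between spectrin and membrane proteins. Its brightest probe, ILMN_2718030, had a normalized log2 signal of 8.25, 8.24 and 8.47 in the homozygotes, against 7.91, 7.40 and 8.33 in the wild type. Homozygous values were high and close together, and wild type replicate 3 lay among them. Ank2 had the largest log2 difference of the 7 genes, 0.44 (SE 0.21, n = 3 per group, limma adjusted p = 0.567), with a 95% interval from -0.0047 to 0.89. The second tested probe, ILMN_3158444, had values of 6.40, 5.94 and 6.00 in the homozygotes and 6.01, 5.54 and 5.80 in the wild type, with a log2 difference of 0.33 (SE 0.20, limma adjusted p = 0.653). The 2 probes of Ank2 thus stood on the same side of 0. The difference depended in size on single wild-type arrays, at 0.21 without replicate 2 and 0.67 without replicate 3. The third probe was detected on 1 array of each genotype.

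Ezr encodes ezrin, which links actin to the plasma membrane and is found in epithelial cells beside fibres. Its normalized log2 signal was 6.61, 6.73 and 6.52 in the homozygotes, against 6.59, 6.82 and 6.17 in the wild type. The homozygous values lay inside the wild-type range. Ezr had a log2 difference of 0.093 (SE 0.19, n = 3 per group, limma adjusted p = 0.916), with a 95% interval from -0.32 to 0.51, and it turned to -0.085 without wild type replicate 3. Ezrin is also made by the pigment epithelium of the retina. The markers of pigment cells, of which 6 of 8 were tested and 0 passed, had deviations of -0.72 to -0.097 on the homozygous arrays, against 0.041, 1.26 and 0.16 on the wild-type arrays. Both Ezr and the mean deviation of these markers were highest on wild type replicate 2, and Tyr of that list was detected on 0 arrays. The other arrays did not share this order. Ezr was lowest on wild type replicate 3, where the markers, at 0.16, lay above every homozygous array. The mean deviation of the lens epithelium markers, given beside Vim, was higher on all 3 homozygous arrays than on any wild-type array. Among the tested markers of that list, Aqp1 and Gja1 were separated in the same way, and Cdh1 overlapped between the genotypes. The part of either list in the Ezr values was not tested.

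The precision of the arrays set how small an observed difference could have passed. At the unadjusted p of the last probe to pass, 0.00019, Bfsp1 would have needed a log2 difference of 0.56, or 1.47-fold. Bfsp2 would have needed 1.56-fold, Vim 1.59-fold and Tmod1 1.69-fold. For Ezr the figure was 2.03-fold, for Ank2 2.14-fold and for Sptbn1 2.91-fold. Observed differences below these sizes could not pass at the fitted SE with 3 arrays per group. These sizes are not limits on the true change, and the p-values above do not show that the levels were equal.

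**Figure D4:**
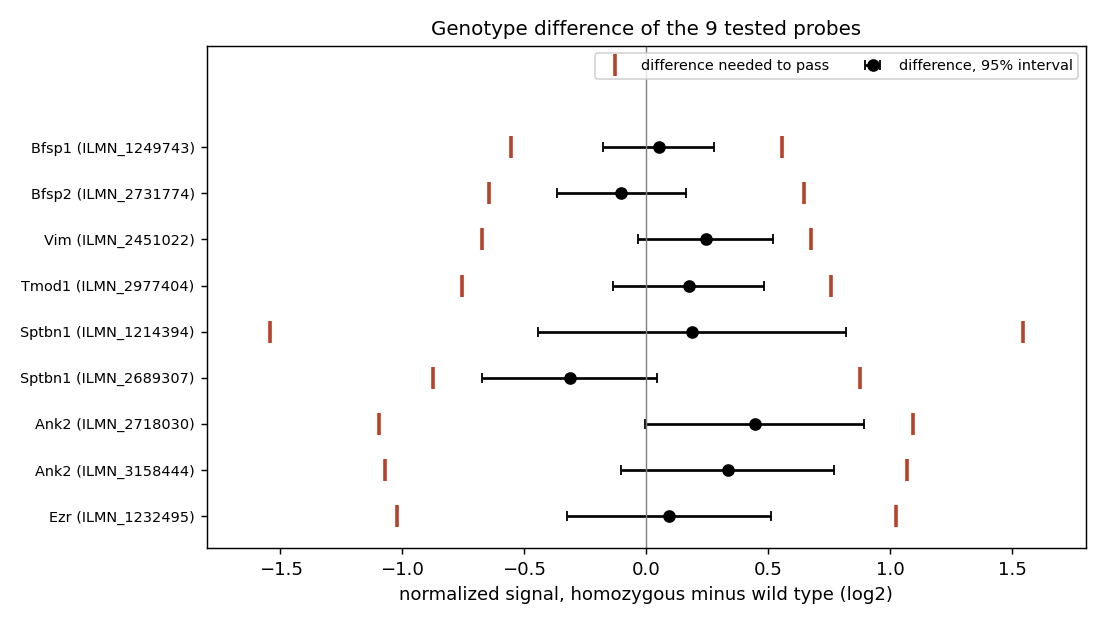
Difference in normalized log2 signal, homozygous minus wild type, for the 9 tested probes, with 95% intervals (black) and the difference each would have needed to pass (red ticks). All 9 intervals include 0, and every point lies inside its red ticks.

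Wild type replicate 2, the outlying array on the main axis of variation, was extreme in 6 of the 7 genes. The share of all tested genes with an extreme value there was not counted, so nothing particular to the members is read from this. It held the highest value of Bfsp2 and Ezr and the lowest of Vim, Tmod1, Sptbn1 and Ank2. On this array the photoreceptor markers had a mean log2 deviation of 1.78, against -0.88 to 0.10 on the homozygous arrays and -0.50 and -0.24 on the other wild-type arrays. The fibre markers had their lowest deviation there, -0.24, against 0.068 to 0.16 on the homozygous arrays and -0.052 and -0.037 on the other wild-type arrays. The part of these lists in the members' values was not tested.

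Spectrin and ankyrin bind each other, and their profiles were compared across the 6 lenses. Over 21 pairs of members, Sptbn1 and Ank2 had the smallest p by Pearson's r, at r = 0.88 (exact permutation p = 0.0333, adjusted over the pairs 0.397), with Spearman's rho = 0.77 (exact permutation p = 0.103, adjusted 0.54), two-sided, n = 6. Without the 2 arrays farthest from the median of Sptbn1, r was 0.53, so the relation rested largely on those arrays. By Spearman's rho, Vim with Tmod1 (0.83) and Sptbn1 with Ezr (-0.83) had smaller p-values (exact permutation p = 0.0583 for each, adjusted 0.54). Pearson's r of Vim with Tmod1 was 0.76 (exact permutation p = 0.0764, adjusted 0.397) and 0.48 without the 2 arrays farthest from the median of Vim. That of Sptbn1 with Ezr was -0.81 (exact permutation p = 0.0792, adjusted 0.397) and -0.28 without those farthest from the median of Sptbn1. Without wild type replicate 2, r was 0.42 for Sptbn1 with Ank2, 0.63 for Vim with Tmod1 and -0.90 for Sptbn1 with Ezr. Bfsp1 and Bfsp2 had r = 0.25 (exact permutation p = 0.631, adjusted 0.725) and rho = 0.29 (exact permutation p = 0.6, adjusted 1). For Bfsp1 and Bfsp2, r was -0.24 without the 2 arrays farthest from the median of Bfsp1 and 0.99 without wild type replicate 2. The value for this pair thus depended on which arrays were kept. With 3 arrays, neither genotype alone allows a correlation.

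The mean-centred profile of Bfsp1 and Bfsp2 together was 0.17, -0.11 and -0.10 in the homozygotes and -0.088, 0.11 and 0.015 in the wild type. The genes whose profile was most like it, among 5756 that varied at least as much, were Rgs7bp, Gid4, Lrig3, Igfbp2 and Tirap, with r of 0.964 to 0.987 over the 6 arrays. These values are a description, since the best of so many genes over 6 arrays are high by selection. None of these 5 genes passed the genotype test (limma adjusted p = 0.933 to 0.991).

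A wider list of the membrane skeleton held 65 genes: other spectrins, ankyrins, adducins, protein 4.1 proteins, tropomodulins, tropomyosins, ezrin relatives, intermediate filaments and actin-linking proteins. Of these, 55 were on the array and 28 were tested. By limma's test 0 of the 28 passed, and 9 had an unadjusted p under 0.05, against 0.435% and 9.14% of all tested genes. The median log2 difference of the list was -0.012, and 14 genes lay on each side of 0. In 8 of 28 genes the genotypes did not overlap, against 15.1% of all tested genes. Of those 8, Tmod2, Slc9a3r1 and Slc9a3r2 were detected on 3 wild-type arrays and 0 homozygous arrays, so they reached the test only through the group where they were high, and nothing is read from the count.

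Above 0, the smallest p belonged to Tpm1, a tropomyosin that lies along actin filaments. Its normalized log2 signal was 8.12, 8.39 and 8.35 in the homozygotes, against 7.75, 7.75 and 7.56 in the wild type. All homozygous values were higher, with a log2 difference of 0.60 (SE 0.14, n = 3 per group, limma adjusted p = 0.141). Tpm1 passed in 1 setting, with array weights (limma adjusted p = 0.0315). With no normalization between arrays its log2 difference was 0.13 (limma adjusted p = 0.558). Its deposited signals overlapped, at 291.8, 359.4 and 339.5 in the homozygotes and 304.8, 342.2 and 283.0 in the wild type. Sptb, the beta-I spectrin chain known from red cells and also from muscle and brain, had 11.34, 11.28 and 11.53 in the homozygotes against 10.97, 10.71 and 11.22 in the wild type. All homozygous Sptb values again lay above the wild type, with a log2 difference of 0.41 (limma adjusted p = 0.355), which turned to -0.035 with no normalization between arrays. Krt19, a simple epithelial keratin, had a log2 difference of 0.62, and Epb41l2, a protein 4.1 relative, one of 0.47 (limma adjusted p = 0.342 and 0.532). These values depended on the background step: Krt19 stood at 0.24 with no background correction and 0.34 at an offset of 50, and Epb41l2 at 0.17 and 0.25, and Epb41l2 was 0.30 without wild type replicate 1. The tested red cell marker, Hba-a1, had a log2 difference of -2.29 (limma adjusted p = 0.159).

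Below 0, the tested probe of Tmod2, the neuronal tropomodulin, was above background on all 3 wild-type arrays and on 0 homozygous arrays. The other probes of Tmod2 were detected on 0 arrays and were not tested. The tested probe had a normalized log2 signal of 4.70, 4.65 and 4.67 in the homozygotes, against 5.11, 5.61 and 5.49 in the wild type. The wild-type mean lay 1.47-fold above the lowest detected signal of the homozygous arrays at the offset of 16 used here. It lay 1.22-fold above at an offset of 50 and 1.15-fold with no background correction. The fitted log2 difference of Tmod2 was -0.73 (limma adjusted p = 0.159), -0.36 and -0.27 in these settings. Slc9a3r1, the scaffold protein that binds ezrin, showed the same detection. Its wild-type mean lay 1.12-fold above the lowest detected signal of the homozygous arrays, and 1.06-fold and 1.04-fold in the other background settings. The fitted log2 difference of Slc9a3r1 was -0.51 (limma adjusted p = 0.296). Neither Tmod2 nor Slc9a3r1 passed in the fit on normalized values. With no normalization between arrays 8 of the 28 genes passed, against 20.5% of all genes, both of these among them, where the median of the list was -0.43 and that of all genes -0.36. The inner retina and glia markers, given above, lay on the same side of 0 as Tmod2. Both reached the test through the wild-type arrays, so the filter favoured this shared side and nothing is read from it. The part of these markers in the Tmod2 value was not tested.

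Actb, cytoplasmic beta-actin, had 12.18, 12.14 and 11.69 in the homozygotes, against 12.32, 12.49 and 12.69 in the wild type, a log2 difference of -0.50 (SE 0.14, limma adjusted p = 0.261). Its 5 probes did not agree, with log2 differences of -0.87 to 0.14, so no direction is given for the gene. The Actb difference was -0.33 without homozygous replicate 3. Epb41l3, another protein 4.1 relative, had a log2 difference of -0.37 (limma adjusted p = 0.442), with homozygous values of 8.78 to 9.01 below wild-type values of 9.14 to 9.53, and it was -0.23 without wild type replicate 2. The other 20 tested genes of the list had log2 differences of -0.46 to 0.54. Among those near 0 were the adducin Add1 at -0.026, the ankyrin Ank3 at -0.052 and the cytolinker Plec at 0.058. Periplakin, Ppl, a plakin that lens fibres express, was at -0.068. Ank3 was detected on only 2 homozygous arrays and 1 wild-type array, so its value near 0 says little about its level.

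**Figure D5:**
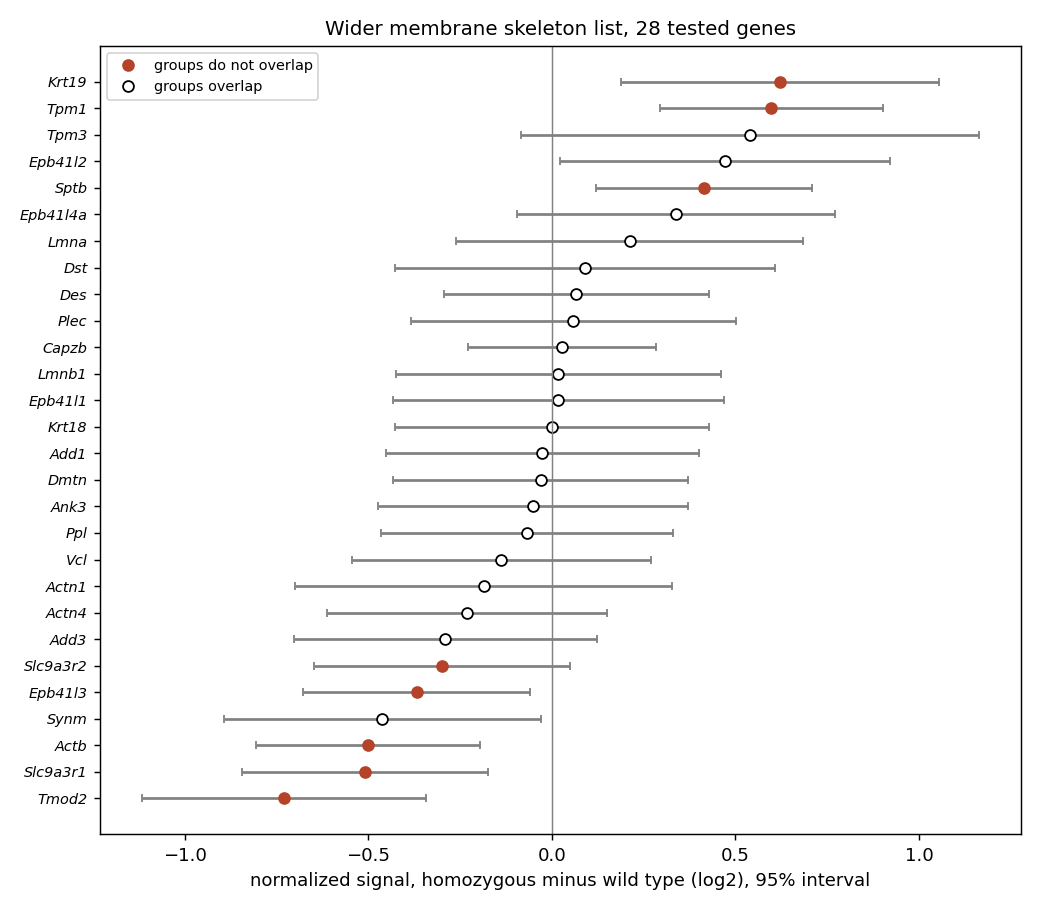
Difference in normalized log2 signal, homozygous minus wild type, with 95% intervals for the 28 tested genes of the wider list, ordered by size; filled red points mark the 8 genes whose groups do not overlap. None passed the test over all genes, and 14 genes lie on each side of 0.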

How the data were processed

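Lens RNA of 6 mice was measured on 1 Illumina BeadChip array each. Per the file headers, the first deposited table holds a linear signal intensity per probe, not normalized, beside a detection p-value, which falls with the signal in the deposited values. The second deposited table holds the authors' processed intensity, background-subtracted and normalized by a method not given in the sources used here. Per the submitters' processing notes, GenomeStudio 2011.1 was used. Symbols came from the platform's annotation (23978 of 25697 probes), updated through gene identifiers against RefSeq GRCm38.p6, used for names only.

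Signals were corrected in limma 3.58.1 (R 4.3.3) by the normal-exponential method, with negative controls inferred from detection p-values and an offset of 16, then quantile normalized and put on the log2 scale. Quantile normalization hides a change shared by most transcripts. Probes detected (p under 0.05) on at least 3 arrays were tested, 8618 in all. A gene is its brightest tested probe. Genotype was the only term of lmFit and eBayes with an intensity trend. Tests were two-sided, with the Benjamini-Hochberg adjustment taken across every tested probe. The procedure was tested on simulated data. The number of arrays limits the precision.

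Members and lists were chosen with earlier results of these data known. Every member and all its probes are named. Of the wider list the genes named first are up to 4 of smallest p per direction, and Add1, Ank3, Plec and Ppl were added after their values were seen. Alternatives covered background, normalization, filter, variance, weights, sex, a replicate block and each array left out.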

Additional observations from a re-analysis of the deposited data

How the results depend on the processing

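By limma the 7 member genes gave 0 calls in the 16 settings that kept a scaling between arrays and with each of the 9 tested probes on its own. They gave 2 calls, Bfsp1 and Bfsp2 (-0.50), in 1 setting chosen after seeing the data, with no normalization between arrays. In that setting 1320 genes changed, the median of all genes was -0.36 and that of the members -0.30. The members stood at -0.34 (Bfsp1), -0.21 (Vim), -0.30 (Tmod1), -0.29 (Sptbn1), -0.033 (Ank2) and -0.34 (Ezr), each with its sign turned. Each of these stood above the median of all genes, and Bfsp2 stood below it, so relative to that median none had turned. With a common median in place of quantile normalization the members' median was 0.091. Array weights turned Bfsp1 to -0.0073 and Sptbn1 to -0.060. Leaving out 1 array turned 4 members: Bfsp1 ranged from -0.059 to 0.12, Bfsp2 from -0.19 to 0.033, Sptbn1 from -0.23 to 0.53 and Ezr from -0.085 to 0.24. The cause of these turns was not tested.

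The count of all changed genes, 28, fell to 17 where background was not corrected, 18 at an offset of 50, 0 with the authors' processed values, 6 with detection on all 6 arrays, and 16 with no intensity trend. It was 60 with array weights, 17 with sex as labelled and 9 to 72 with 1 array left out: 12, 9 and 9 without homozygous replicates 1 to 3, 72 without wild type replicate 1 and 13 without replicate 3. The authors' values, where 0 genes passed by limma and 573 had an unadjusted p under 0.05, were set to at least 16 before log2. With the replicate block the count was 102 and the members' count stayed 0. Deviations of same-numbered arrays correlated at 0.20, 0.19 and -0.030, and those of differently numbered arrays at -0.21 to 0.037. Whether the replicate numbers pair the samples cannot be told from these values. Slide as a block was not run, because the labels and headers used here give no slide.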
